A study of Homo sapiens with 12 samples.

Results

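The 10 genes described here encode large scaffold proteins of the centrosome: CEP290, AKAP9, CCDC88A, PCNT, CEP350, CEP250, NIN, PCM1, CEP152 and CEP192. They were taken by gene name from the first of 2 deposited count tables and by gene identifier from the second, out of 50356 genes listed in both, and all 10 passed the filter on low counts in both tables. They were selected on earlier results of the same comparisons, the levels and fold changes of S371A and S55A against their wild types, so those values are given here as a description. The RNA came from SW1990, a human pancreatic adenocarcinoma line derived from a spleen metastasis, and the cells of all 4 groups had been kept for 24 h in DMEM without glucose. In experiment 1, 3 libraries of cells with rPHGDH S371A were set against 3 with WT rPHGDH (WT-1). In experiment 2, 3 libraries of cells with rPHGDH S55A were set against 3 others with WT rPHGDH (WT-2). PHGDH is the first enzyme of serine synthesis from a glycolytic intermediate, and S371A and S55A each replace a serine by alanine. The labels do not explain the prefix of rPHGDH, and do not say whether the cells' own PHGDH was still present or whether a line was 1 clone. Nothing in them says that replicates were separate cultures, so p-values measure only how these libraries spread, and that spread may be technical. Each mutant was run with its own wild type in its own experiment, so where the mutants are set against each other, mutation and experiment cannot be told apart.

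The centrosome is the main microtubule organising centre of animal cells and consists of a pair of centrioles inside a protein matrix. The matrix proteins pericentrin (PCNT) and AKAP450 (AKAP9) hold gamma-tubulin complexes and signalling enzymes, CEP192 and CEP152 bring the kinase that starts centriole duplication, and ninein (NIN), C-Nap1 (CEP250) and CEP350 belong to the centrioles and their appendages. PCM1 builds the centriolar satellites, granules that carry proteins to the centrosome, and CEP290 works in the satellites and in the transition zone at the base of the cilium. CCDC88A encodes girdin, an actin-binding protein and modulator of trimeric G proteins that has also been found at centrosomes, so it is a scaffold of several sites and not of the centrosome alone.

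In S55A cells, transcripts of CEP290, CCDC88A and AKAP9 were far lower than in WT-2 cells, at 0.330, 0.272 and 0.433 of the wild-type level. NIN, CEP152 and CEP250 were lower by less, and PCNT, CEP192, CEP350 and PCM1 did not pass the threshold, a Benjamini-Hochberg adjusted p under 0.05 over all genes tested by edgeR's quasi-likelihood test. So 6 of the 10 were called lower in S55A and 0 higher, where 7.06% of 15521 genes tested were called lower and 8.97% higher. In S371A cells 1 of the 10 was called higher, AKAP9 with 1.44 times the WT-1 level, and 0 were called lower, where 7.05% of 16235 genes were called higher and 5.53% lower. Since the genes were chosen with these values known, nothing more is read from these counts. Bulk RNA cannot tell fewer cells with a transcript from less of it per cell.

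The promoter windows of the 3 genes with the largest falls in S55A are shown with that of CEP192, which was not called in either mutant. Each runs from 250 bases before to 50 bases after a RefSeq gene start on GRCh38.p14, 5′ to 3′ on the gene's strand, and capitals mark matches on either strand to 6 motifs. The motifs were CHR (TTTGAA), the element through which MuvB complexes act on cell cycle genes, the CCAAT box (CCAAT), ETS (CCGGAA), E2F (TTCCCGC), YY1 (AAGATGGC) and SP1 (GGGCGG).
CEP290, chr12:88142039-88142338, minus strand: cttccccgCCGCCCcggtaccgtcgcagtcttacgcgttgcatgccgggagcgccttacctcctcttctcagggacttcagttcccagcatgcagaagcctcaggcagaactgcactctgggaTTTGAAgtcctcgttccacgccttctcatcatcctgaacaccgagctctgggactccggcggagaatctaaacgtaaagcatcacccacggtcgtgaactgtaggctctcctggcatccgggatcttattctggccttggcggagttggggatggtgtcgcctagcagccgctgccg
AKAP9, chr7:91940612-91940911, plus strand: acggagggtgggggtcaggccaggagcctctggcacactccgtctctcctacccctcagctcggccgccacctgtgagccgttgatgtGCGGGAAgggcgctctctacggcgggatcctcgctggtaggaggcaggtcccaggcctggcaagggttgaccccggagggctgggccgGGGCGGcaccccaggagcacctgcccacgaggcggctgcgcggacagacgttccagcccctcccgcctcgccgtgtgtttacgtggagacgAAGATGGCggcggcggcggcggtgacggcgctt
CCDC88A, chr2:55419807-55420106, minus strand: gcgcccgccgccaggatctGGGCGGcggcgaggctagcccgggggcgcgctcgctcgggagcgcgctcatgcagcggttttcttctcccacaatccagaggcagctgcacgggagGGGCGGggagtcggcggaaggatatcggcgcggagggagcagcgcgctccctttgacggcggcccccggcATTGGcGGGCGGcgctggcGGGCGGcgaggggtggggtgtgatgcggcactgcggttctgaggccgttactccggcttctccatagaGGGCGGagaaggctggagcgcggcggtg
CEP192, chr18:12991112-12991411, plus strand: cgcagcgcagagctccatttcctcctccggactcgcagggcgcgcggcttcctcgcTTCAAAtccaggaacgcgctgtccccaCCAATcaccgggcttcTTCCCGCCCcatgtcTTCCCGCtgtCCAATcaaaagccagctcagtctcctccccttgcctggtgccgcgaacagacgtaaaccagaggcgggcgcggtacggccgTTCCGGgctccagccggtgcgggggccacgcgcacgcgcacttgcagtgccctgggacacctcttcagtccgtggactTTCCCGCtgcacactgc
The CEP290 window holds 1 CHR match and 1 SP1 match. AKAP9 has 1 E2F, 1 YY1 and 1 SP1 match, and CCDC88A 1 CCAAT box and 5 SP1 matches. CEP192 holds 1 CHR, 2 CCAAT, 1 ETS, 3 E2F and 1 SP1 matches, the SP1 match overlapping an E2F match. SP1 was the 1 motif present in all 3 of the genes with large falls, and it was also in CEP192. RefSeq windows at the gene start were at hand for 8 of the 10 genes. PCM1 was left out of the search, and no window was found for CEP250. In these 8 windows SP1 matched in all 8, the CCAAT box in 4, CHR in 3 (CEP290, CEP152 and CEP192), E2F in 3, ETS in 2 and YY1 in 1. AKAP9 and PCNT each have a second window at another start, with 2 CHR and 0 SP1 matches in that of AKAP9, and 1 CCAAT, 1 YY1 and 5 SP1 matches in that of PCNT. Over all 35116 promoter windows of the same length, second starts included, SP1 matched in 44.95%, CCAAT in 34.6%, ETS in 17.2%, CHR in 15.2%, E2F in 6.55% and YY1 in 2.89%. The 8 windows at the gene start had 59.7% (CEP290) to 79.3% (NIN) GC, and the shares over all windows were not matched for GC. A match describes letters in the window and does not show a bound site.

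All 10 genes are long. On GRCh38 they span 64.1 to 170 kb, with a longest GENCODE 29 transcript of 5635 bases (CEP152) to 15703 bases (CEP250) in 27 to 54 exons, and an encoded protein of 1710 residues (CEP152) to 3910 (AKAP9). CEP290 lies at chr12:88049014-88142216 on the minus strand, AKAP9 at chr7:91940867-92110673 on the plus strand and CCDC88A at chr2:55287842-55419921 on the minus strand. NIN lies at chr14:50719763-50831121 and CEP152 at chr15:48712928-48811146, both on the minus strand, and CEP250 at chr20:35455164-35519280 on the plus strand. PCNT at chr21:46324122-46445769, CEP192 at chr18:12991362-13125052, CEP350 at chr1:179954738-180114880 and PCM1 at chr8:17922840-18029944 are on the plus strand. Both tables give these coordinates, which for all but CCDC88A are those of GENCODE 29. In 8 of the longest transcripts, 0 windows of 50 bases occur in another gene's transcripts, and CEP250 and PCM1 share 0.466% and 0.158% of theirs. Up to 4.09% of a gene's exonic bases (CEP152) lie opposite a gene on the other strand, and whether strand was used in counting is not given in the sources used here. For CEP290 that share is 3.86%, and the opposite gene, C12orf29, had 15.1 ± 0.758 CPM (the count over the library's total, scaled with TMM factors) in S55A and 18.6 ± 0.771 CPM in WT-2 (SD, n = 3 each).

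The libraries held 13667033 to 19240270 counts, and the lowest Spearman correlation within a group was 0.988. PHGDH itself was lower in both mutants: it had 196, 183 and 224 CPM in S371A against 470.0, 495 and 456 CPM in WT-1, and 364, 359 and 346 CPM in S55A against 738, 706 and 734 CPM in WT-2. Its log2 fold change was -1.24 ± 0.08 (SE) in S371A and -1.03 ± 0.05 in S55A, both called. The counts are per gene and do not separate rPHGDH from the cells' own PHGDH. In both experiments the mutation thus went with a lower PHGDH transcript level, and their parts in other changes cannot be told apart. Epithelial markers summed to 5994 to 6937 CPM in S371A and 5183 to 5619 CPM in WT-1, and to 4620 to 4930 CPM in S55A and 3397 to 3682 CPM in WT-2. Of the 8 tested, KRT18 and EPCAM rose in S371A, while in S55A KRT8, KRT18 and MUC1 rose and SOX9 fell. MUC1 was low, at means of 1.79 CPM in S55A and 0.678 CPM in WT-2, from 131 counts over all libraries of experiment 2. Leukocyte, fibroblast, endothelial, and pancreatic acinar and endocrine markers summed to at most 27.4 CPM per list in any library, with 4 of 7 endothelial and 7 of 10 acinar and endocrine markers at 0 counts in each experiment. Of these, the fibroblast marker PDGFRB fell in S371A, with 10.2 ± 1.19 CPM against 21.7 ± 1.44 CPM in WT-1. Of the 9 fibroblast markers, 6 were at 0 counts in experiment 1 and 0 in experiment 2. In experiment 2 they summed to 15.1 to 27.4 CPM in S55A and 9.64 to 19.1 CPM in WT-2, overlapping. The 3 tested there had a median log2 fold change of 1.14, and 0 were called. The acinar marker PRSS1, which has near-identical copies that can share its reads, fell in S55A, with 2.60 ± 0.985 CPM against 5.63 ± 1.28 CPM in WT-2 (SD, n = 3 each). The call of EPCAM was lost without replicate 2 or 3 of S371A or 1 or 3 of WT-1, and those of MUC1 and PRSS1 without any 1 library other than replicate 3 of S55A. The part of these marker shifts in the values of the scaffold genes was not tested.

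Among the matrix genes, AKAP9, which anchors protein kinase A and gamma-tubulin complexes at the centrosome and the Golgi, moved in opposite directions in the mutants. In S371A it had 314, 365 and 343 CPM, against 253, 224 and 232 CPM in WT-1. In S55A it had 83.0, 81.3 and 95.8 CPM, against 193, 210.3 and 198 CPM in WT-2. Neither pair of groups overlapped, with all S371A libraries above all of WT-1 and all S55A libraries below all of WT-2. The log2 fold change was 0.53 ± 0.07 in S371A and -1.21 ± 0.08 in S55A.

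PCNT, pericentrin, the other large matrix protein that holds gamma-tubulin complexes, had 225, 225 and 223 CPM in S371A against 210.2, 199 and 214 CPM in WT-1. In S55A it had 159, 148 and 165 CPM, against 179.6, 167 and 179.6 CPM in WT-2. The groups did not overlap in either experiment, with S371A above WT-1 and S55A below WT-2, yet both differences missed the threshold, at log2 fold changes of 0.11 ± 0.04 and -0.16 ± 0.07. Where offsets removed each library's trend with transcript length and GC content, the S55A value of PCNT became -0.27 and passed. CEP192, which recruits PCNT, gamma-tubulin complexes and the kinases PLK4 and Aurora A, had 149, 161 and 149 CPM in S371A against 157, 151 and 153 CPM in WT-1. In S55A it had 142, 139.5 and 146 CPM, against 152, 150.0 and 153 CPM in WT-2. The S371A groups overlapped, and the S55A libraries lay just below those of WT-2. Its log2 fold changes were -0.01 ± 0.05 in S371A and -0.09 ± 0.05 in S55A, and neither passed.

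CEP152, the platform on which PLK4 starts a daughter centriole, had 67.1, 65.8 and 58.2 CPM in S371A against 63.2, 59.2 and 61.5 CPM in WT-1. In S55A it had 29.1, 29.3 and 38.8 CPM, against 48.9, 54.96 and 53.0 CPM in WT-2. The S371A groups overlapped and the S55A groups did not, although replicate 3 of S55A stood above the other two S55A libraries. The log2 fold change was 0.06 ± 0.07 in S371A, not called, and -0.69 ± 0.12 in S55A, called lower.

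Of the genes for centriole and appendage proteins, NIN encodes the subdistal appendage protein that anchors microtubule minus ends. It had 53.2, 53.4 and 53.2 CPM in S55A, against 81.1, 78.4 and 78.7 CPM in WT-2. In S371A it had 73.8, 76.0 and 83.7 CPM, against 87.1, 84.2 and 89.5 CPM in WT-1. NIN was thus below its wild type in every library of both mutants, without overlap. Its log2 fold change was -0.58 ± 0.06 in S55A, called lower, and -0.16 ± 0.06 in S371A, not called, though with the length and GC offsets the S371A value became -0.23 and passed.

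CEP250, the linker protein C-Nap1 that holds the pair of centrioles together, had 94.9, 91.6 and 85.7 CPM in S55A against 119, 106 and 118 CPM in WT-2. In S371A it had 119.7, 128 and 137 CPM, against 130.3, 126 and 131 CPM in WT-1. The S55A groups stood apart and the S371A groups overlapped. Its log2 fold change was -0.33 ± 0.07 in S55A, called lower, and -0.01 ± 0.06 in S371A. The S55A call was lost without replicate 2 of S55A (-0.34), replicate 1 of WT-2 (-0.30) or replicate 3 of WT-2 (-0.31). CEP350, a centriole protein that binds and stabilises microtubules, had 104, 108 and 138 CPM in S55A against 126, 125.6 and 127 CPM in WT-2, so 1 S55A library lay above all of WT-2 and the other two lay below. Its log2 fold change was -0.11 ± 0.11 and was not called, but without replicate 3 of S55A it was -0.25 and passed. In S371A, CEP350 had 145, 159.6 and 148 CPM against 157, 142 and 152 CPM in WT-1, overlapping, with a log2 fold change of 0.01 ± 0.06.

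Among the satellite and cilium genes, CEP290 had 33.8, 30.9 and 35.9 CPM in S55A, against 101, 104 and 99.9 CPM in WT-2. The libraries of a group lay close together and the groups far apart, and the log2 fold change was -1.60 ± 0.07. In S371A it had 142, 162 and 162 CPM against 147, 127 and 122 CPM in WT-1, where the lowest S371A library lay below the highest WT-1 library, and the log2 fold change of 0.23 ± 0.09 was not called. PCM1, which builds the satellites that CEP290 binds to, had 218, 217 and 242.5 CPM in S55A against 222, 257 and 218 CPM in WT-2. These groups overlapped, with a log2 fold change of -0.04 ± 0.08. In S371A PCM1 had 313, 337 and 334 CPM, against 359, 341 and 342 CPM in WT-1. That separation without overlap, at -0.08 ± 0.04, was not called, while the length and GC offsets gave -0.15 and a call.

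CCDC88A, the girdin gene, was the least abundant of the 10 and had the largest fold change, with 6.42, 4.47 and 5.79 CPM in S55A against 19.9, 21.97 and 19.4 CPM in WT-2. These levels rest on 115, 82 and 112 counts in S55A and 354, 303 and 328 counts in WT-2. The groups did not overlap, and the log2 fold change was -1.88 ± 0.15. In S371A CCDC88A had 17.6, 15.1 and 16.4 CPM against 20.4, 16.5 and 17.6 CPM in WT-1, overlapping, with a log2 fold change of -0.15 ± 0.11. On the log2(FPKM + 1) scale, which shrinks the changes of low genes, the S55A value of CCDC88A was -0.57 and was still called.

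**Figure D1:**
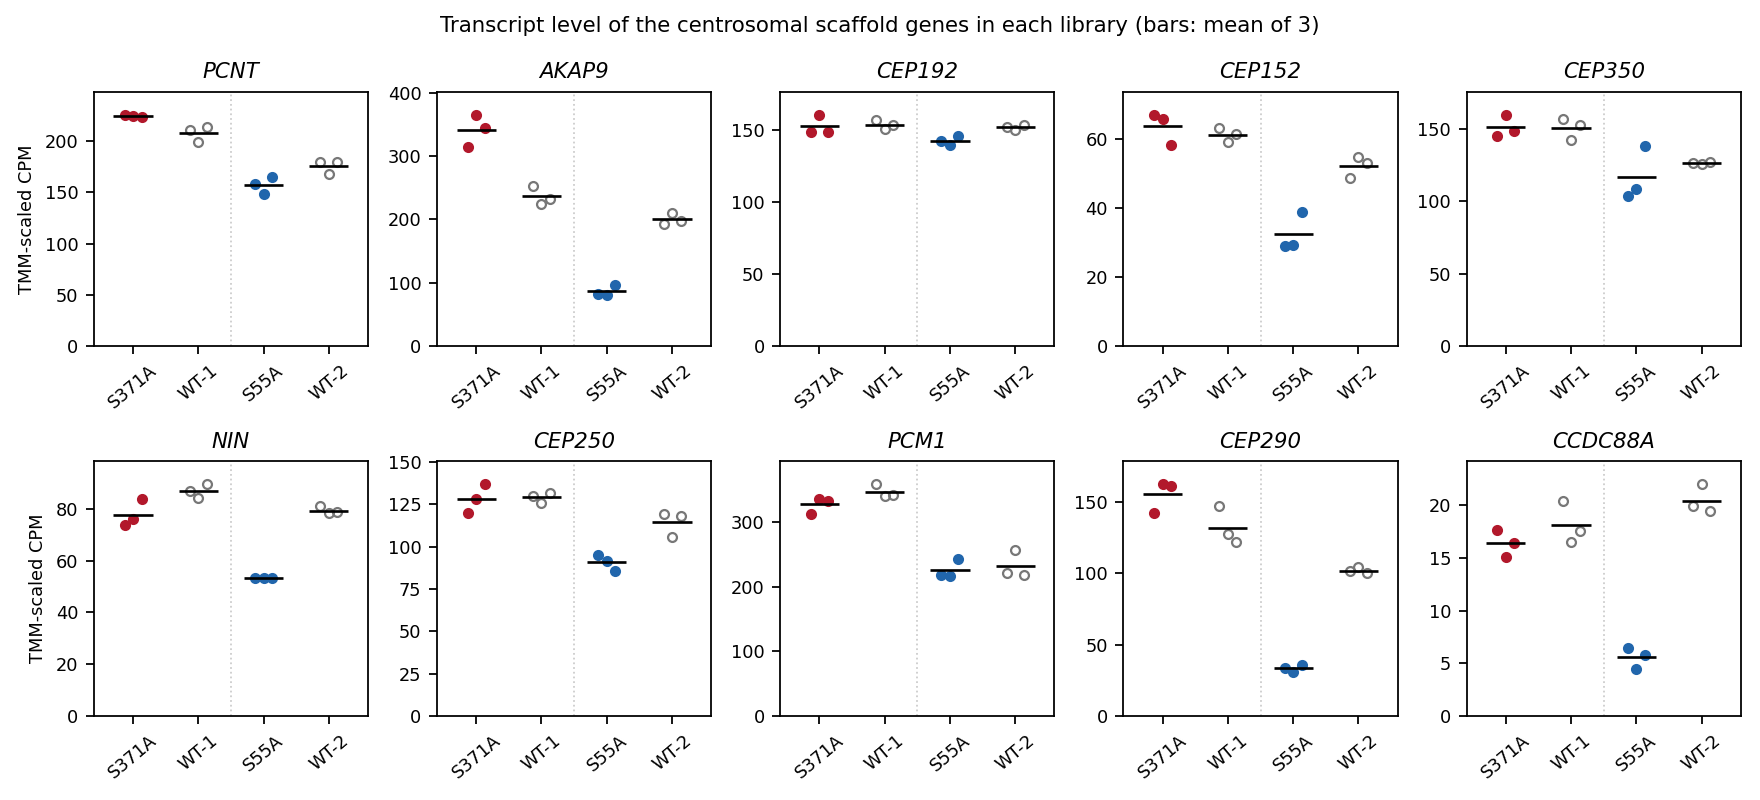
Level of each of the 10 scaffold genes in each library (y axis, TMM-scaled CPM from 0; each panel has its own scale), with filled points for S371A and S55A, open points for their wild types WT-1 and WT-2, and a bar at the mean of 3. AKAP9 was above WT-1 in S371A and below WT-2 in S55A, and CEP290 lay at 30.9 to 35.9 CPM in S55A against 99.9 to 104 CPM in WT-2.

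At an unadjusted p under 0.05, edgeR gave 7 of the 10 lower and 0 higher in S55A, where 15.6% of all genes were lower and 16.4% higher. DESeq2 called 6 lower and 0 higher there, against 7.20% and 9.08% of all genes. In S371A edgeR gave 1 lower (NIN) and 3 higher (AKAP9, PCNT and CEP290) unadjusted, where 14.4% of all genes were lower and 15.0% higher. DESeq2 called 0 lower and 1 higher in S371A, against 4.39% and 6.41% of all genes. CPM ranges did not overlap for 8 of the 10 genes in S55A, all with S55A below, against 38.2% of all genes without overlap in either direction and 18.7% with S55A below. In S371A they did not overlap for 4, against 36.5% of all genes, and 2 of the 4 (NIN and PCM1) had S371A below, against 18.3%. The median log2 fold change of the 10 was -0.46 in S55A and -0.00 in S371A, beside -0.01 over all genes in each. In S55A all 10 log2 fold changes were negative, and 3 of them were called and past -1, as were 1.17% of all genes. In S371A 0 were called lower by that much, as were 0.610% of all genes.

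**Figure D2:**
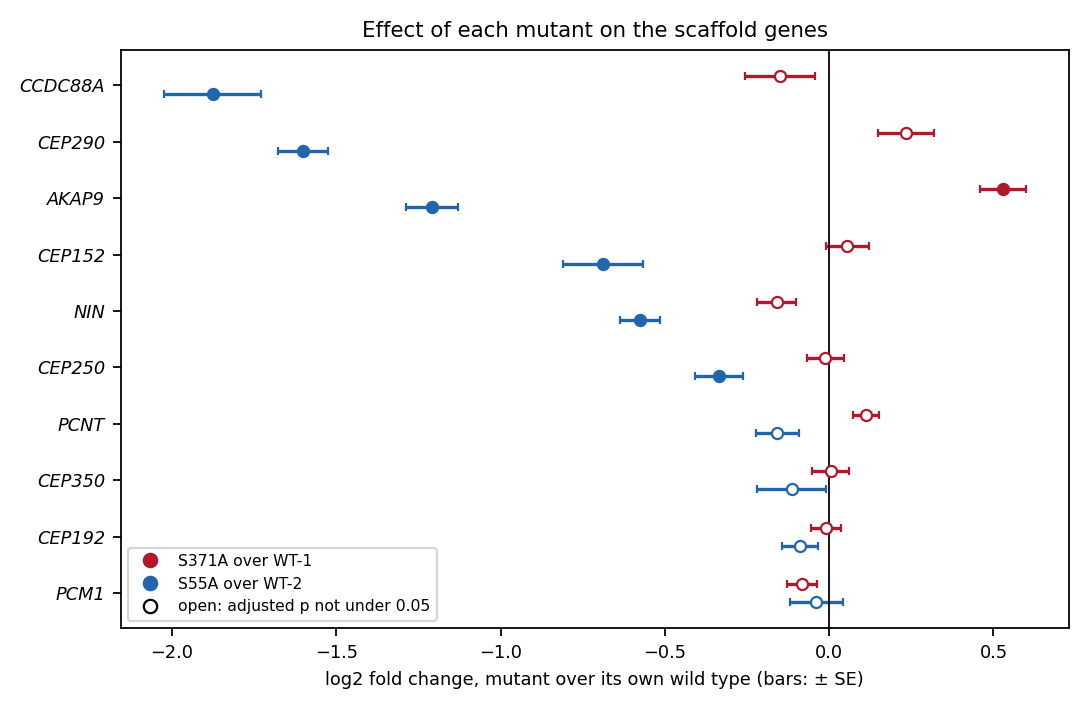
Log2 fold change of each scaffold gene (x axis; bars, SE) in S371A over WT-1 (red) and in S55A over WT-2 (blue), ordered by the S55A value, with open points where the adjusted p was not under 0.05. The S55A values ran from -1.88 for CCDC88A to -0.04 for PCM1, and the S371A values from -0.16 for NIN to 0.53 for AKAP9.

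The difference between the effects, S55A over WT-2 minus S371A over WT-1, was tested over all 12 libraries. It was called for 7 of the 10 scaffold genes, all with the S55A effect the lower, where 12.5% of 16666 genes were called, 6.43% with the S55A effect the lower and 6.10% with it the higher. It was -1.84 ± 0.12 on the log2 scale for CEP290, -1.74 ± 0.11 for AKAP9 and -1.73 ± 0.19 for CCDC88A. For CEP152 it was -0.75 ± 0.15 and for NIN -0.42 ± 0.08. CEP250 had -0.33 ± 0.09 and PCNT -0.28 ± 0.07, and these calls were lost in 11 and 14 of 21 alternatives, among them most that left out a library. Without replicate 2 of WT-1, for example, the values were -0.29 and -0.23. CEP192, CEP350 and PCM1 were not called, at -0.08 ± 0.06, -0.12 ± 0.13 and 0.04 ± 0.10.

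Levels of the genes were compared with each other in the authors' FPKM, which divides by a gene length that was 1.302 (PCNT) to 2.64 (CCDC88A) times the longest GENCODE 29 transcript, so the orders hold for that length. In S55A the order was PCNT at 11.4 ± 0.805 FPKM, PCM1 at 10.7 ± 0.882, CEP192 at 9.82 ± 0.401, CEP350 at 5.64 ± 1.01, CEP250 at 4.13 ± 0.144, AKAP9 at 3.33 ± 0.367, CEP152 at 2.99 ± 0.571, CEP290 at 2.73 ± 0.246, NIN at 2.28 ± 0.041 and CCDC88A at 0.214 ± 0.0386 FPKM (SD, n = 3). Ranges of neighbours overlapped from PCNT to CEP192 and from AKAP9 to CEP290, and the other neighbours stood apart. In WT-2 the order was PCNT at 12.8 ± 0.473 FPKM, PCM1 at 11.2 ± 1.08, CEP192 at 10.6 ± 0.0754, CEP290 at 8.38 ± 0.213, AKAP9 at 7.78 ± 0.374, CEP350 at 6.17 ± 0.0169, CEP250 at 5.28 ± 0.338, CEP152 at 4.88 ± 0.295, NIN at 3.45 ± 0.0663 and CCDC88A at 0.796 ± 0.0553 FPKM. Here the overlapping neighbours were PCNT and PCM1, PCM1 and CEP192, CEP290 and AKAP9, and CEP250 and CEP152. On this scale CEP290 and AKAP9 stood below CEP350 and CEP250 in S55A and above them in WT-2.

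In S371A the FPKM order was PCNT at 16.2 ± 0.314, PCM1 at 15.6 ± 0.554, AKAP9 at 13.1 ± 0.974, CEP290 at 12.6 ± 0.862, CEP192 at 10.5 ± 0.551, CEP350 at 7.28 ± 0.410, CEP152 at 5.88 ± 0.524, CEP250 at 5.84 ± 0.312, NIN at 3.33 ± 0.173 and CCDC88A at 0.629 ± 0.0504 FPKM. PCNT and PCM1, AKAP9 and CEP290, and CEP152 and CEP250 overlapped. In WT-1 it was PCM1 at 16.7 ± 0.527, PCNT at 15.2 ± 0.549, CEP290 at 10.8 ± 1.13, CEP192 at 10.7 ± 0.251, AKAP9 at 9.17 ± 0.596, CEP350 at 7.34 ± 0.366, CEP250 at 5.96 ± 0.130, CEP152 at 5.72 ± 0.197, NIN at 3.77 ± 0.112 and CCDC88A at 0.706 ± 0.0796 FPKM. There CEP290 and CEP192, and CEP250 and CEP152, overlapped. In FPKM, AKAP9 stood above CEP192 in S371A and below it in WT-1, without overlap in either, and NIN and CCDC88A held the last 2 places in all 4 groups. With CPM per kb of the longest transcript, a scale chosen after seeing the data, PCM1 stood first in all 4 groups, at 1.86 times the level of PCNT in S371A, 2.13 in WT-1, 1.83 in S55A and 1.69 in WT-2. In FPKM these ratios were 0.960, 1.0995, 0.945 and 0.870. On the transcript scale AKAP9 also stood above CEP192 in WT-1 (18.9 ± 1.18 and 17.8 ± 0.372 CPM per kb), with overlap, and above CEP250 in S55A (6.95 ± 0.635 and 5.78 ± 0.297 CPM per kb). CCDC88A stayed last in all 4 groups there, and the ninth place went to NIN in S371A, CEP290 in S55A and CEP250 in WT-1 and WT-2.

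The 3 genes with the largest falls in S55A have the lowest GC content of the 10 in their longest transcript, 35.9% for CEP290, 37.8% for CCDC88A and 38.2% for AKAP9. PCM1, with 39.7%, comes next and was not called. The most GC-rich, CEP250 with 53.7% and PCNT with 56.0%, had log2 fold changes of -0.33 and -0.16. Over all genes tested, the share called lower in S55A was 11.1% at a GC content up to 36%, 12.9% from 36% to 38% and 11.4% from 38% to 40%, against 4.59% above 60%. The median log2 fold change of all genes was -0.11 in the lowest of these bins and 0.06 in the highest. In S371A the same bins had 4.34%, 3.92% and 5.08% called lower, and 7.51% above 60%. The shares called higher in S371A ran the other way, at 9.33%, 9.66% and 8.64%, and 4.45% above 60%. By transcript length, more genes were called in both directions among long transcripts in S55A. Up to 1000 bases 4.98% were called lower and 2.81% higher. From 8000 to 12000 bases, where CCDC88A, CEP192, NIN, PCM1 and PCNT lie, 7.67% were lower and 14.75% higher. Over 12000 bases, where AKAP9, CEP250 and CEP350 lie, 14.8% were lower and 10.7% higher, with a median log2 fold change of 0.01. In S371A, 4.12% were called lower and 2.12% higher up to 1000 bases. From 8000 to 12000 bases 5.33% were lower and 14.1% higher there, and over 12000 bases 7.66% and 9.85%. With offsets that removed the trends with length and GC, the S55A log2 fold changes were -1.53 for CEP290, -1.84 for CCDC88A and -1.16 for AKAP9, all called. The offsets take out only a smooth trend over all genes in each library. What part GC content and length have in the values of the scaffold genes was not tested.

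**Figure D3:**
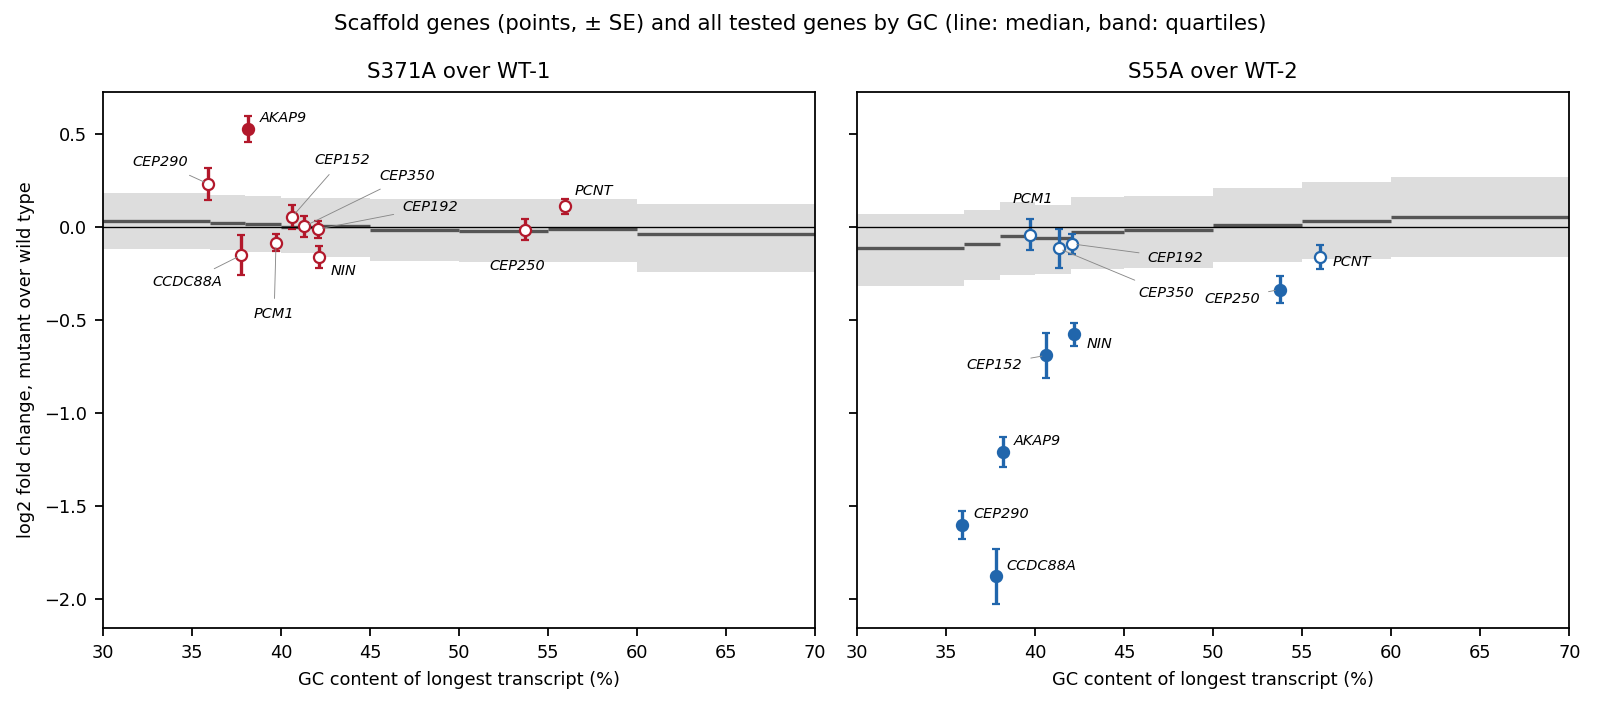
Log2 fold change (y axis; points with SE for the 10 scaffold genes, filled where called) against GC content of the longest transcript in percent (x axis), for S371A over WT-1 (left) and S55A over WT-2 (right). Lines give the median and bands the quartiles of all genes tested in each GC bin, and in S55A the points of CEP290, CCDC88A and AKAP9 at 35.9% to 38.2% GC lie far below the band.

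Other centrosome genes were read from lists, whose counts stand beside shares over all genes of 7.06% lower and 8.97% higher in S55A, and of 5.53% lower and 7.05% higher in S371A. Several of these counts are small and not far from those shares. Of 15 other satellite genes, 6 fell in S55A, among them CCDC18 (-1.11 ± 0.11) and CCDC14 (-0.89 ± 0.14), and the list's median was -0.33. That count was 2 without replicate 1 or 2 of S55A or replicate 2 of WT-2, and 3 without replicate 1 of WT-2. Of 20 centriole duplication genes, 3 fell in S55A and 1 rose, and 2 in all were called without replicate 2 of S55A. CENPJ, which sets centriole length, fell by 0.57 on the log2 scale, and PLK4, the kinase that CEP152 and CEP192 recruit, fell by 0.36. In the gamma-tubulin list 3 of 20 fell in S55A, HAUS6, HAUS5 and NEDD1, with -0.44 ± 0.07, -0.51 ± 0.10 and -0.30 ± 0.07. NEDD1, which ties gamma-tubulin complexes to the centrosome, averaged 119 ± 4.16 CPM in S371A and 76.4 ± 0.482 CPM in WT-1, and 55.2 ± 3.06 CPM in S55A and 67.9 ± 2.48 CPM in WT-2 (SD, n = 3). It rose in S371A (0.64 ± 0.04) in all 15 alternatives, while its call in S55A held in 7 of 15.

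Of 19 transition zone genes, which act where CEP290 does, 4 fell and 1 rose in S55A, with AHI1 (-0.73 ± 0.10), RPGRIP1L (-0.59 ± 0.08) and TCTN2 (-0.54 ± 0.09) among the falls. These 5 calls became 3 without replicate 1 of S55A or of WT-2. In the appendage and linker list, which holds neighbours of NIN and CEP250, 3 of 16 fell and 1 rose in S55A, but 0 or 1 passed when any of replicates 1 and 2 of S55A or 1 to 3 of WT-2 was left out. PRKAR2A (0.47 ± 0.08) and PRKAR2B (0.42 ± 0.08), regulatory subunits of the kinase that AKAP9 anchors, rose in S55A, the 2 called of 11 protein kinase A subunits and girdin relatives. In S371A the calls in these lists were mostly rises: CNTRL (0.45 ± 0.06) and CCDC68 (0.53 ± 0.07) among 4 of 16 appendage and linker genes, and SPICE1 (0.41 ± 0.06) among 5 of 20 duplication genes, where 1 fell. The appendage count was 2 without replicate 2 of WT-1, and the duplication calls numbered 1 to 3 without any library other than replicate 1 of S371A. Against 7.05% of all genes higher in S371A, the mitotic kinase list had 3 of 10, among them TPX2 (0.37 ± 0.05) and AURKA (0.34 ± 0.06).

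A list of 25 long coiled-coil proteins outside the centrosome was the nearest in protein type. In S371A, 17 of them rose, with a median of 0.26, among them CENPE (0.67 ± 0.09), SMC2 (0.54 ± 0.06), GOLGB1 (0.50 ± 0.06) and MYH9 (0.40 ± 0.05). Leaving out any 1 library gave 11 to 13 called in S371A. With the replicate number as a block 9 were called, and on the log2(FPKM + 1) scale 11. In S55A, 9 fell and 3 rose, with a median of -0.07. CENPE, the kinetochore motor, fell by 1.94 on the log2 scale there, TRIP11 by 0.80 and TPR by 0.65. In the test of the difference, 13 of the 25 were called with the S55A effect the lower, as were 6.43% of all genes. The median of all 25 was -0.42, beside -0.37 for the 10 scaffold genes. Of 38 DNA replication genes, 16 fell in S55A with a median of -0.30, CLSPN by 0.73, and 9 without replicate 1 of WT-2. Their summed level was 2294 to 2651 CPM in S55A and 3098 to 3246 CPM in WT-2. What part replication has in the levels of the scaffold genes was not tested.

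**Figure D4:**
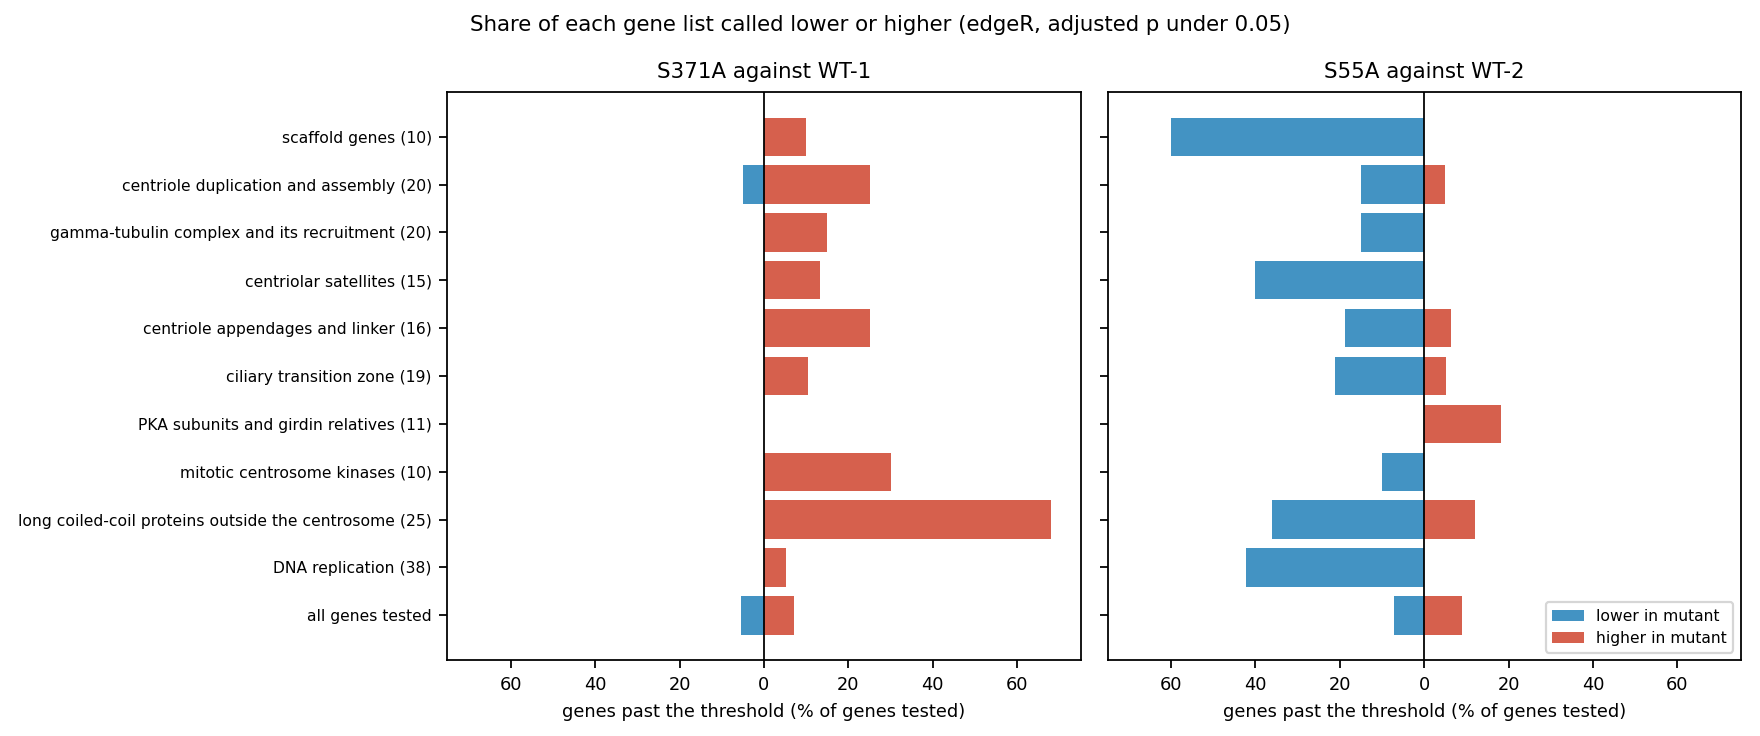
Share of each list's tested genes (x axis, percent; numbers of genes in brackets) called lower (blue, left of 0) or higher (red, right of 0) in S371A against WT-1 (left) and in S55A against WT-2 (right), with all genes tested at the bottom. In S55A the bars of the scaffold genes (6 of 10), DNA replication genes (16 of 38) and satellite genes (6 of 15) reach farthest to the lower side, and in S371A that of the long coiled-coil proteins outside the centrosome (17 of 25) reaches farthest to the higher side.

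The genes whose levels over the 12 libraries ran closest to the mean of the 10 were sought among 11335 genes with at least 5 CPM on average in both tables. Likeness was Pearson's r of log2 CPM, each table centred on its own mean, with the mean z-score of the 10. The first 5 were BOD1L1 (0.982), ATRX (0.978), ZGRF1 (0.978), ZNF721 (0.977) and CEP162 (0.977). ATRX encodes a chromatin remodeller and CEP162 a centriole protein at the base of the cilium. The correlations are a description, since these genes share their libraries with the 10, and the GC content of their longest transcripts was 36.8% to 43.2%. In S55A their log2 fold changes were -0.64 ± 0.08, -0.68 ± 0.08, -0.93 ± 0.12, -0.69 ± 0.12 and -0.63 ± 0.13, all called, that of CEP162 not without replicate 1 or 2 of S55A. The mean of the 10 falls in S55A, so the ranking picks genes that fall there and these calls are no separate result. Over all genes tested, 7.06% were called lower in S55A. Of the 10 themselves, each compared with a mean that it is part of, CEP290 had the highest r (0.957) and PCM1 the lowest (0.359).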

How the data were processed

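Counts and FPKM of 12 libraries were read from 2 deposited tables, 1 an experiment. The authors deposited whole-number counts of reads or fragments per gene, and FPKM values, which scale them by the length of the gene and the total of the library. Per the submitters' processing notes, CASAVA, HISAT2 2.0.4, StringTie 1.3.0 and edgeR were used, with the builds GRCh38 and mm10, without a role for each. The gene coordinates are human. Neither annotation release nor strand setting is given in the sources used here.

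Genes were filtered with filterByExpr and tested in R 4.3.3 with edgeR 4.0.16 (TMM factors, robust quasi-likelihood F test, Benjamini-Hochberg adjustment at 0.05), each mutant against its own wild type over 6 libraries. The difference of the effects was fitted over 12 libraries and genes in both tables. Tested on simulated data, these steps recovered only part of the changes put in, fewest for small ones and in the test of the difference, and the share of unchanged genes among those called was above the nominal threshold. All replicates of a group differed by more than sampling noise. A count of 3 equals 0.156 to 0.22 CPM. Alternatives were other scaling factors, DESeq2 1.42.0, other filters, a replicate block, limma 3.58.1 on log2 of the deposited FPKM plus 1 or 0.1, offsets for length and GC, and each library left out. Transcript length and GC came from GENCODE 29 and were known for 99.7% and 99.4% of genes tested. Promoter sequences are RefSeq's.

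The members and the lists were chosen with earlier results of these data known. Beside all members and PHGDH, genes named are up to 3 called genes with the smallest p in each list and comparison, the 5 most alike genes and called markers. C12orf29, and CENPE in S371A, fall outside that rule and were named after their values were seen. FBF1 was left out of its list because 2 identifiers carry that name.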

Additional observations from a re-analysis of the deposited data

Results flagged for a closer look

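The effects of the mutants differed for 7 of the 10 scaffold genes by the test of the difference itself (edgeR over 12 libraries, adjusted p under 0.05), with S55A over WT-2 minus S371A over WT-1 at -1.84 for CEP290, -1.74 for AKAP9, -1.73 for CCDC88A, -0.75 for CEP152, -0.42 for NIN, -0.33 for CEP250 and -0.28 for PCNT on the log2 scale. The genes were chosen with these values known, and mutant and experiment cannot be told apart in this difference. AKAP9 was called in both mutants, with opposite signs. The calls on CEP250 and PCNT were lost in 11 and 14 of the 21 alternatives.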

How the results depend on the processing

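No scaffold gene that was called changed sign under the alternatives tried. Of 510 values of single scaffold genes under alternatives, 478 stayed on their side of the threshold, 28 lost a call and 4 gained one. Among the 478, 12 values close to 0 of genes not called crossed 0, 7 of them of CEP350, 3 of CEP192 and 1 of CEP250 in S371A and 1 of PCM1 in S55A. The calls of CEP290, AKAP9, CCDC88A, NIN and CEP152 in S55A and that of AKAP9 in S371A held under all 15 alternatives. In S55A 6 were called lower, and leaving out 1 library gave 5 to 7. In S371A 0 were called lower, and with the length and GC offsets 2 were (NIN and PCM1).

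Same-numbered libraries did not deviate together over the genes tested, with correlations of -0.085 to -0.003. The main fits use no pairing, and these correlations cannot show whether libraries were paired when they were made. With the replicate number as a block, 784 genes were called in S371A, 1632 in S55A and 1098 for the difference, beside 2042, 2488 and 2087 without it. Leaving out 1 library gave 917 to 1576 in S371A, 1344 to 2491 in S55A and 1407 to 2257 for the difference. The count fell by more than 1.5 times without replicate 2 or 3 of S371A or any replicate of WT-1, and in S55A without replicate 1 or 2 of S55A or 1 or 3 of WT-2. The lowest level described, that of CCDC88A in S55A, rests on 82 to 115 counts a library.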
